A study of Homo sapiens with 20 samples.

Results

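The comparison described here set Caco-2 cells cultured with live Lactobacillus salivarius Ls-33 directly against Caco-2 cells cultured with live Bifidobacterium lactis 420, with no medium control in the contrast. Its members are the 4 arrays whose titles name these co-cultures, 2 for each strain, out of 20 arrays in the series. Caco-2 is a human colon carcinoma line, and the cells, at passages 47 to 51, had been differentiated on inserts with a 5 day protocol. Both strains were grown without oxygen in MRS broth with 1% glucose, washed, and given on the apical side in differentiation medium without antibiotics for 8 h. The labels give 20 to 100 bacteria for each Caco-2 cell as a range that covers every strain, so the number of bacteria and the strain cannot be told apart. RNA input was 5 µg for every array used. The same set of 14 arrays also had 2 of cells in medium alone at 8 h, 2 of cells with live L. acidophilus NCFM at 8 h, and 2 of cells exposed over 24 h to the 10% (v/v) cell-free supernatant of each strain. The design text says that samples were analysed in duplicate without saying whether the duplicates came from separate cultures, so p-values measure the spread between arrays, which may be technical.

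Intestinal epithelial cells sense bacteria through pattern receptors that lead to NF-kB. NF-kB switches on chemokines, adhesion molecules and acute phase genes, and it also switches on its own inhibitors, such as IkB-alpha, A20 and the microRNA miR-146a, which limit the response. Cytokines made in that response can act back on the epithelium through STAT proteins and interferon response factors, which raise antiviral, antigen-presenting and acute phase genes. Both strains are used as probiotics, and the question the comparison answers is in which genes the epithelial response to the 2 live strains differed at the same time point.

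The arrays correlated at r = 0.9964 between the Ls-33 duplicates, at 0.9961 between the B. lactis 420 duplicates and at 0.9944 to 0.9952 between strains, over 54675 probe sets. Enterocyte markers were present at similar levels, with 1 of 11 tested markers called (KRT20, 0.47 higher with Ls-33), and their summed log2 signal was 99.1 and 99.3 with B. lactis 420 and 101.1 and 99.5 with Ls-33. Of the leukocyte markers, 2 of 6 tested were higher with Ls-33 (LYZ and FCER1G), and CD3D (6.29 to 6.67), CD14, ITGAM and CSF1R (3.69 to 4.86) were above the floor of 2.74, the 40th percentile of named genes, without a call. PTPRC, CD3E, CD2, MS4A1, CD79A and NKG7 lay under that floor on all 4 arrays, with PTPRC between 1.54 and 2.04. The 12 measured leukocyte markers summed to 42.3 and 41.1 with B. lactis 420 and to 43.4 and 42.8 with Ls-33, and their part in the results was not tested. None of 7 tested fibroblast and endothelial markers was called by limma (2 at an unadjusted p under 0.05), and none of 4 markers of other intestinal cells (0 at that p). The actin 3′ to 5′ difference, a sign of RNA quality, was 1.18 ± 0.13 (SD, n = 2) with B. lactis 420 and 1.24 ± 0.02 (SD, n = 2) with Ls-33. In these bulk samples fewer cells of a type and less RNA per cell cannot be told apart.

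Of 11865 genes tested, 662 differed between the strains at an adjusted p under 0.05 (limma, Benjamini-Hochberg), which is 5.58% of the genes. With Ls-33, 342 genes were higher (2.88%) and 320 were lower (2.70%). The list counts below are to be read beside these shares. The larger differences lay on the Ls-33 side. At least 2-fold differences were seen in 39 genes that were higher with Ls-33 (0.329%) and in 6 that were lower (0.0506%). The median size of a called difference was 0.44 on the log2 scale, or 1.36-fold, and 88 called genes differed by less than 1.2-fold. The 2 arrays of one strain did not overlap those of the other in any called gene, and 51.5% of all tested genes were likewise free of overlap. Leaving out any 1 of the 4 arrays cut the lower calls to between 73 and 150, and leaving out Ls-33 replicate 1, Ls-33 replicate 2 or B. lactis 420 replicate 1 cut the higher calls to between 105 and 147. Of the 662 genes, 107 stayed called whichever of the 4 arrays was left out, 29 of the 45 with at least 2-fold differences among them, and 231 were called in none of these fits.

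**Figure D1:**
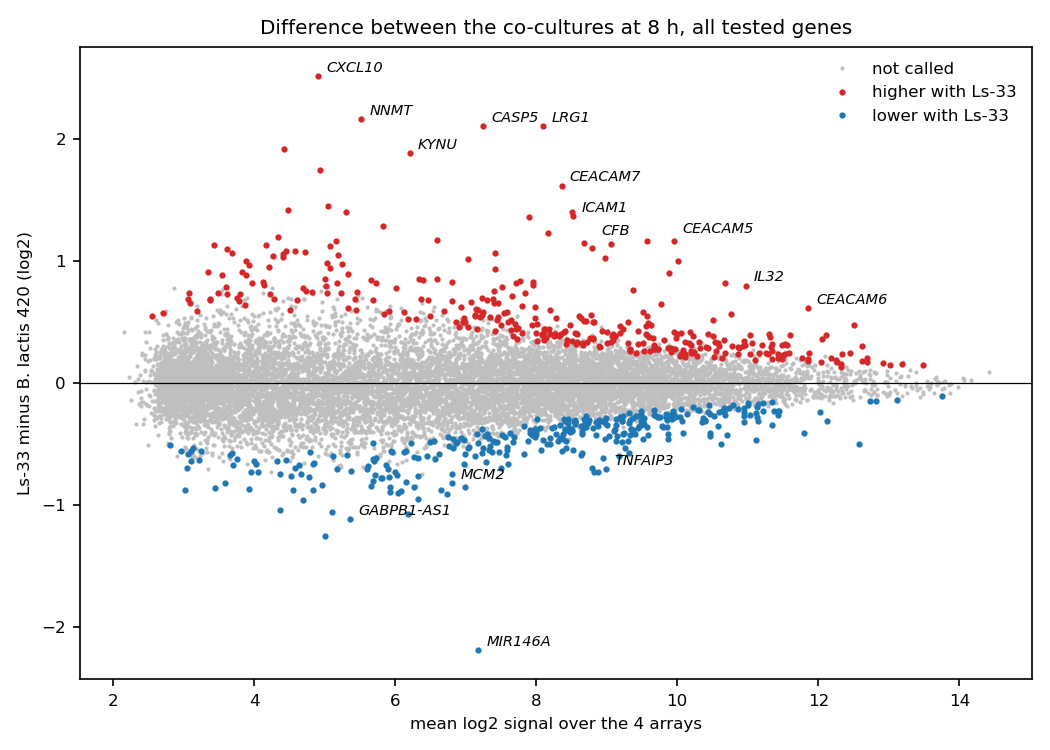
Difference between the co-cultures (Ls-33 minus B. lactis 420, log2, vertical axis) against mean log2 signal over the 4 arrays (horizontal axis) for the 11865 tested genes. Red points are the 342 genes called higher with Ls-33, blue points the 320 called lower, and grey points were not called. CXCL10 at 2.52 and MIR146A at -2.20 lie at the ends.

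The gene that rose most with Ls-33 over B. lactis 420 was CXCL10, a chemokine that draws T cells and is induced by interferons together with NF-kB. Its log2 signal was 3.53 and 3.78 with B. lactis 420 and 6.31 and 6.03 with Ls-33. The difference was 2.52 ± 0.16 (SE), or 5.72-fold (adjusted p = 2.01e-08). The B. lactis 420 arrays stood above the medium arrays, which read 1.98 and 2.09, and the Ls-33 arrays stood above both. The gene that fell most was MIR146A, the host transcript of a microRNA that lowers signalling from Toll-like receptors to NF-kB. It read 8.24 and 8.32 with B. lactis 420 and 6.08 and 6.08 with Ls-33, a difference of -2.20 ± 0.17 (SE), or 4.58-fold lower (adjusted p = 1.08e-07). Here the order was turned, with B. lactis 420 highest, Ls-33 between and medium lowest at 2.28 and 2.14. The probe set reads the long primary transcript and not the mature microRNA. The mature product of that transcript is shown with its seed, bases 2 to 8, in capitals, as RefSeq (GRCh38.p14) gives it at chr5:160485372-160485393 on the plus strand.
hsa-miR-146a-5p: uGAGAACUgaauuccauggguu

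Promoter stretches are shown for 8 genes picked by name among the called genes on both sides, each with a match to the letters given here. They do not show how often such letters go with either direction, for which the shares are given below. They come from the RefSeq promoter windows of GRCh38.p14, 250 bases before to 50 after each start, 5′ to 3′ on the gene's strand, cut to at most 20 bases around the matches. Capitals mark matches on either strand to the core of the interferon-stimulated response element (GAAA and GAAA with 2 free bases between), to the gamma-activated site that STAT proteins bind (TTCNNNGAA) or to a kappaB form (GGGA and TTCC with 2 free bases between). The first 6 genes were higher with Ls-33 and the last 2, NFKBIA and TNFAIP3, were lower.
CXCL10: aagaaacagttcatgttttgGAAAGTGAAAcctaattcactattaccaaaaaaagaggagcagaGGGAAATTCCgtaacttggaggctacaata
CFB: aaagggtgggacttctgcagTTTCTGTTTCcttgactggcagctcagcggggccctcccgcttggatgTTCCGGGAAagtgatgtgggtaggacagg
CASP5: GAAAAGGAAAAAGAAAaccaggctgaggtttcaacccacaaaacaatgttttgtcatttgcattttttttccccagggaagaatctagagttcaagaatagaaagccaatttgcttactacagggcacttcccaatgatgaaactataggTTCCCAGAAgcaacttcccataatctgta
CEACAM1: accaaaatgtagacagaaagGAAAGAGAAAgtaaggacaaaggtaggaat
ICAM1: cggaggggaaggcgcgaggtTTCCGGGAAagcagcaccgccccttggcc
LRG1: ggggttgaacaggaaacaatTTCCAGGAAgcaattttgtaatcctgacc
NFKBIA: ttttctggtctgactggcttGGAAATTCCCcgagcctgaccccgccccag
TNFAIP3: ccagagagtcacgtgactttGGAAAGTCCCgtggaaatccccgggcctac

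The CXCL10 stretch (chr4:76023645-76023738, minus strand) holds an interferon element 221 bases and a kappaB form 177 bases upstream of the start. In CFB (chr6:31945935-31946031, plus strand) an interferon element lies 140 bases and a gamma-activated site 92 bases upstream. The CASP5 stretch (chr11:105023240-105023418, minus strand) holds overlapping interferon elements from 250 and 244 bases upstream and a gamma-activated site from 100. CEACAM1 (chr19:42528568-42528617, minus strand) has an interferon element at 116. ICAM1 (chr19:10271025-10271073, plus strand) and LRG1 (chr19:4540170-4540218, minus strand) have gamma-activated sites at 75 and 162. The lower genes NFKBIA (chr14:35404801-35404850, minus strand) and TNFAIP3 (chr6:137867172-137867221, plus strand) have kappaB forms at 81 and 67.

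Of the 342 higher genes, 289 had a promoter window, and of the 320 lower genes, 261 had one. The interferon element was found in 4.63% of the 432 windows of higher genes, in 1.06% of the 378 windows of lower genes, in 2.80% of the 14031 windows of tested genes and in 3.57% of all 35116 windows. The gamma-activated site was found in 7.41% of the higher windows, 7.67% of the lower windows, 6.03% of the tested and 7.66% of all. For the kappaB form the shares were 3.01%, 1.85%, 1.57% and 1.61%. The kappaB share was thus larger in higher than in lower windows, unlike in the stretches shown. These are shares of letters, with no test, and a match is not a bound site.

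Some feedback inhibitors of NF-kB were lower with Ls-33 than with B. lactis 420, MIR146A, NFKBIA and TNFAIP3, while other inhibitors and the NF-kB subunits were not called. NFKBIA, which encodes IkB-alpha, read 9.21 and 9.17 with B. lactis 420 and 8.40 and 8.51 with Ls-33. The difference was -0.73 ± 0.09 (SE) with an adjusted p of 3.94e-05, and the Ls-33 arrays lay beside the medium arrays at 8.50 and 8.48. TNFAIP3, which encodes the ubiquitin-editing enzyme A20, read 9.20 and 9.49 with B. lactis 420 and 8.63 and 8.65 with Ls-33 (-0.71 ± 0.13, SE, adjusted p = 0.00280). Its medium arrays were lower than either, at 6.67 and 6.46. The call of TNFAIP3 was lost without B. lactis 420 replicate 2, and those of MIR146A and NFKBIA were kept in every such fit. Among NF-kB subunits and regulators these 3 were the only calls in 25 tested genes, with 0 higher, and the median difference was -0.02, as it was over all tested genes. Other regulators of the pathway went both ways without a call, NFKBIZ at -0.25 (adjusted p = 0.0557), NFKBIE at -0.05, NFKBIB at 0.08 and TNIP2 at 0.32. The subunit NFKB2 read 6.97 and 7.01 with B. lactis 420 and 7.13 and 7.10 with Ls-33 (0.12 ± 0.16, SE, adjusted p = 0.733). IER3, an early gene downstream of NF-kB, was also lower with Ls-33 (-0.46 ± 0.08, SE, adjusted p = 0.00112).

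**Figure D2:**
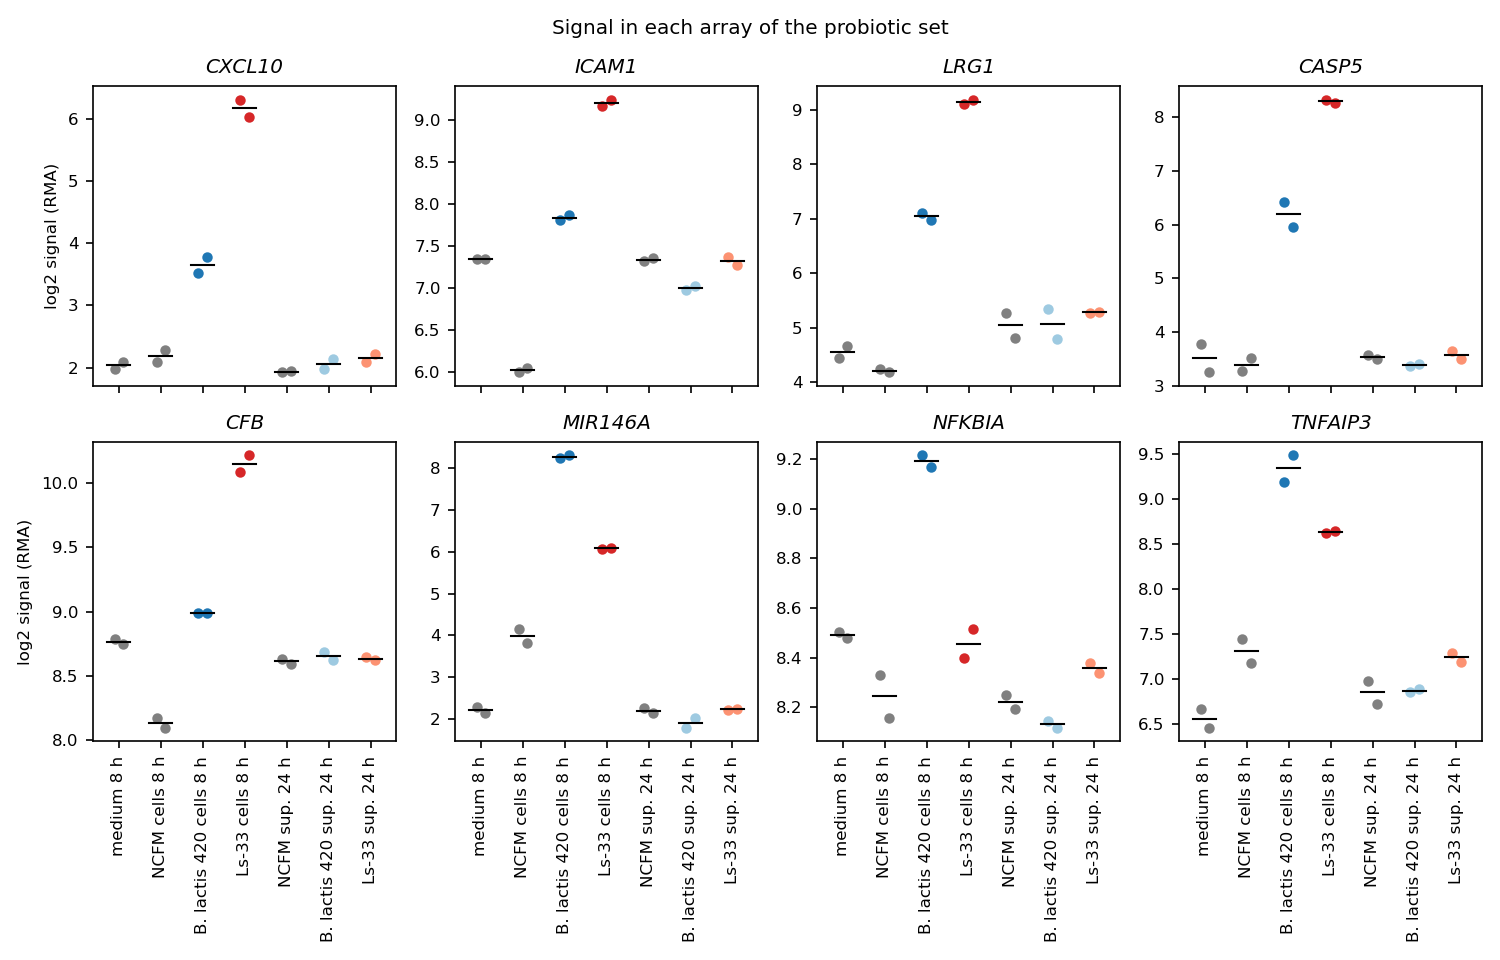
Log2 signal (vertical axis) of 8 genes in each of the 14 arrays of the probiotic set, by group, with live cells at 8 h and supernatants (sup.) at 24 h. Points are arrays and bars are means of 2 arrays. CXCL10, ICAM1, LRG1, CASP5 and CFB were higher with live Ls-33 cells than with live B. lactis 420 cells, and MIR146A, NFKBIA and TNFAIP3 were lower.

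Few chemokines and cytokines had signal above the floor. Of 18 measured chemokines 6 were tested and 2 were higher with Ls-33, CXCL10 and CXCL8. CXCL10 was among the tested genes only through its Ls-33 arrays, since its mean over the 14 arrays was 2.88 and without those arrays 2.34, under the floor, so that its place in that count is no support. It was the only one of the 342 higher genes so placed. With no filter on level its adjusted p was 1.39e-08 by limma. CXCL8, which draws neutrophils, read 4.30 and 4.92 with B. lactis 420 and 5.61 and 5.49 with Ls-33 (0.94 ± 0.25, SE, adjusted p = 0.0320). That call was kept in 1 of the 4 fits with an array left out, and the other probe set of CXCL8 differed by 0.30 (adjusted p = 0.424). CCL20, a chemokine for dendritic cells and lymphocytes, read 12.24 and 12.35 with B. lactis 420 and 12.08 and 12.16 with Ls-33, and its difference of -0.17 ± 0.07 (SE) did not pass the test (adjusted p = 0.196). Both strains thus stood far above medium in CCL20, at 9.53 and 9.52 there, without a called difference between them. Among 17 tested cytokines IL32 alone was called, at 10.61 and 10.53 with B. lactis 420 and 11.35 and 11.38 with Ls-33 (0.80 ± 0.07, SE, adjusted p = 1.33e-06). IL32 encodes a cytokine that is itself induced by NF-kB.

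Cytokine receptors moved to the Ls-33 side, with 7 of 29 tested higher (24.1%, beside 2.88% of all tested genes) and 0 lower. Their median difference was 0.17. TNFRSF9, the co-stimulatory receptor 4-1BB, read 8.38 and 8.54 with B. lactis 420 and 9.39 and 9.58 with Ls-33 (1.02 ± 0.16, SE, adjusted p = 7.88e-04). IL1RAP, the co-receptor through which interleukin 1 signals, read 6.15 and 6.90 with B. lactis 420 and 7.58 and 7.49 with Ls-33 (1.02 ± 0.17, SE, adjusted p = 0.00164). The calls of TNFRSF9 and IL1RAP were kept in all 4 fits with an array left out. TNFRSF11A, the receptor RANK, was higher by 0.97 ± 0.20 (SE), and TNFRSF1A, the main TNF receptor, by 0.57 ± 0.14 (SE). Without any 1 of the 4 arrays only 2 or 3 receptors were called.

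Interferon-stimulated genes were higher with Ls-33 in 9 of 42 tested (21.4%, beside 2.88% of all tested genes) and lower in none. Their median difference was 0.23, beside -0.02 over all tested genes, and 35 of the 42 differences were positive. GBP1, an interferon-induced guanylate-binding protein that acts on bacteria inside cells, read 3.14 and 2.99 with B. lactis 420 and 3.83 and 4.49 with Ls-33 (1.10 ± 0.25, SE, adjusted p = 0.0143). PARP9 was higher by 0.89 ± 0.19 (SE), and its partner DTX3L, with which it forms a ubiquitin ligase in the interferon response, by 0.78 ± 0.15 (SE). PARP14, which lies close to both genes on chromosome 3, was higher by 0.60 ± 0.17 (SE, adjusted p = 0.0404). IFIH1, the cytosolic RNA sensor MDA5, read 4.69 and 4.85 with B. lactis 420 and 5.71 and 5.46 with Ls-33 (0.82 ± 0.18, SE, adjusted p = 0.0124). OAS1, which makes the activator of RNase L, was higher by 0.68 ± 0.13 (SE) and PLSCR1, a membrane scramblase with antiviral action, by 0.58 ± 0.07 (SE). The remaining called members, SP100 and IFITM2, were higher by 0.77 and 0.68. IRF1, a transcription factor of the same response, read 4.81 and 4.69 with B. lactis 420 and 5.09 and 4.69 with Ls-33 and was not called (adjusted p = 0.757). The count of 9 fell to 4 without Ls-33 replicate 1, to 2 without B. lactis 420 replicate 1, to 5 without B. lactis 420 replicate 2 and to 6 without Ls-33 replicate 2. OAS1 and PLSCR1 were the only members kept in every such fit.

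Genes of antigen presentation by MHC class I followed with 3 of 21 tested higher (14.3%, beside 2.88% of all tested genes) and 0 lower. ERAP1 and ERAP2 encode the peptidases that trim peptides for MHC class I in the endoplasmic reticulum. ERAP1 read 7.37 and 7.59 with B. lactis 420 and 8.20 and 8.23 with Ls-33 (0.74 ± 0.11, SE, adjusted p = 5.25e-04). ERAP2 was higher by 0.84 ± 0.17 (SE, adjusted p = 0.00612). B2M, the light chain of class I molecules, differed by 0.30 ± 0.04 (SE, adjusted p = 5.90e-04), its arrays reading 12.46 and 12.48 with B. lactis 420 and 12.80 and 12.74 with Ls-33. The ERAP1 level with Ls-33 was close to that in medium, at 8.15 and 8.31, and the B. lactis 420 arrays lay below both.

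Acute phase and complement genes were higher with Ls-33 in 7 of 20 tested, and C4BPB, a subunit of a complement inhibitor, was lower (-0.49 ± 0.13, SE). LRG1, a leucine-rich acute phase glycoprotein that STAT3 induces in epithelium, read 7.12 and 6.98 with B. lactis 420 and 9.11 and 9.19 with Ls-33. The difference was 2.10 ± 0.19 (SE), or 4.30-fold, with an adjusted p of 1.22e-06. CFB, complement factor B of the alternative pathway, read 8.99 and 8.99 with B. lactis 420 and 10.08 and 10.22 with Ls-33 (1.16 ± 0.08, SE, adjusted p = 2.66e-08). Its B. lactis 420 arrays stood near medium, at 8.78 and 8.74. C3, the central complement component, was higher by 0.81 ± 0.21 (SE, adjusted p = 0.0277), a call that was lost without any 1 of the 4 arrays.

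The 3 fibrinogen chains, whose genes lie side by side on chromosome 4, were all higher with Ls-33. FGA read 7.43 and 7.68 with B. lactis 420 and 8.75 and 8.83 with Ls-33 (1.23 ± 0.19, SE, adjusted p = 6.71e-04). FGB differed by 1.15 ± 0.11 (SE, adjusted p = 2.48e-06) and FGG by 0.76 ± 0.10 (SE, adjusted p = 2.25e-04). The flanking gene PLRG1 was tested and not called, at 0.19 (adjusted p = 0.229). Of 15 tested genes of the STAT3 and SOCS list, which shares LRG1 and IL6ST with other lists, 4 were higher and 0 lower, and the median difference was 0.26. STAT3 itself read 9.37 and 9.43 with B. lactis 420 and 9.84 and 9.89 with Ls-33 (0.47 ± 0.11, SE, adjusted p = 0.0172). SOCS3, the feedback inhibitor that STAT3 induces, read 2.78 and 3.00 with B. lactis 420 and 3.71 and 3.89 with Ls-33 (0.91 ± 0.23, SE, adjusted p = 0.0286). Without any 1 of the 4 arrays LRG1 alone of this list was called, and another probe set of SOCS3 differed by -0.18.

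Inflammatory caspases gave some of the largest differences. CASP5, which senses cytosolic lipopolysaccharide and cleaves gasdermin D, read 6.43 and 5.96 with B. lactis 420 and 8.33 and 8.26 with Ls-33. Its difference was 2.10 ± 0.20 (SE), or 4.30-fold (adjusted p = 2.12e-06). CASP4, a sensor of the same kind, read 6.91 and 7.51 with B. lactis 420 and 8.76 and 8.39 with Ls-33 (1.36 ± 0.19, SE, adjusted p = 2.25e-04), while its other probe set differed by 0.05 (adjusted p = 0.915). CARD16, a caspase-1 inhibitor that holds only the recruitment domain, was higher by 1.40 ± 0.30 (SE, adjusted p = 0.0105), a call kept in 2 of the 4 fits with an array left out. These genes lie in 1 cluster on chromosome 11 together with CASP1 and CASP12. CASP1 was under the floor and not tested, at 2.43 and 2.50 with B. lactis 420 and 3.66 and 3.29 with Ls-33. CASP12 differed by -0.04 and was also under the floor. The sequences of CASP4, CASP5, CASP1 and CARD16 are related, and reading of one transcript by another's probes was not tested. Of 18 tested caspases and death effectors 3 were higher, and GSDME, a gasdermin cut by caspase-3, was lower (-0.43 ± 0.08, SE, adjusted p = 0.00233). None of 19 tested BCL2 family genes was called by limma, and 4 had an unadjusted p under 0.05.

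Of the 46 gene lists, adhesion molecules had the highest share of calls, with 8 of 14 tested higher with Ls-33, 0 lower and a median difference of 0.62. All 8 calls were kept whichever of the 4 arrays was left out. CD44, the receptor for hyaluronan, read 3.15 and 3.80 with B. lactis 420 and 5.07 and 5.71 with Ls-33 (1.91 ± 0.29, SE, adjusted p = 6.10e-04). Its 3 other tested probe sets differed by 0.48, 0.55 and 0.60. ICAM1, to which leukocytes attach, read 7.80 and 7.87 with B. lactis 420 and 9.17 and 9.24 with Ls-33 (1.37 ± 0.10, SE, adjusted p = 1.01e-07). OLR1, a scavenger receptor for oxidised lipoproteins that also binds bacteria, read 7.81 and 7.81 with B. lactis 420 and 9.15 and 9.28 with Ls-33 (1.40 ± 0.16, SE, adjusted p = 3.94e-05). In medium OLR1 read 3.45 and 3.53, so that both strains lay far above it.

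The remaining 5 calls of that list were carcinoembryonic antigen genes, some of which encode apical glycoproteins that bacteria bind. CEACAM7 read 7.67 and 7.43 with B. lactis 420 and 9.15 and 9.19 with Ls-33 (1.62 ± 0.28, SE, adjusted p = 0.00164), and its other probe sets differed by 2.85 and 2.50. CEACAM5 read 9.34 and 9.40 with B. lactis 420 and 10.56 and 10.50 with Ls-33 (1.16 ± 0.09, SE, adjusted p = 1.01e-07). CEACAM1, which carries an inhibitory cytoplasmic motif, read 10.31 and 10.22 with B. lactis 420 and 11.05 and 11.12 with Ls-33 (0.82 ± 0.06, SE, adjusted p = 3.88e-08). For CEACAM1 medium lay at 11.17 and 11.19, beside Ls-33, whereas for CEACAM5 and CEACAM7 medium lay below both strains. CEACAM8 and CEACAM6 were higher by 0.63 and 0.61. Their neighbours CEACAM3, CEACAM4 and CEACAM21 on chromosome 19 were under the floor and not tested. The genes are closely related, and reading of one by the probes of another was not tested.

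Antimicrobial genes and antiproteases were higher in 5 of 13 tested. PI3, the elastase inhibitor elafin, read 8.18 and 8.30 with B. lactis 420 and 9.27 and 9.41 with Ls-33 (1.10 ± 0.18, SE, adjusted p = 0.00102). PIGR, which carries IgA across the epithelium, read 3.59 and 3.64 with B. lactis 420 and 4.90 and 4.58 with Ls-33 (1.13 ± 0.16, SE, adjusted p = 4.28e-04). NOX1, a superoxide-making oxidase of the colon, PLA2G2A, a bactericidal phospholipase, and LYZ, lysozyme, were higher by 0.96, 0.82 and 0.75. The lectin REG4 was lower, at -0.43 ± 0.09 (SE, adjusted p = 0.00871). The calls of PI3 and PIGR were kept in all 4 fits with an array left out, and those of LYZ and REG4 in 1 of the 4. The list had 2 higher calls without either Ls-33 array and 3 without B. lactis 420 replicate 1.

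Enzymes of tryptophan and nicotinamide metabolism gave 3 calls in 14 tested, all higher with Ls-33 and kept in all 4 fits with an array left out. NNMT, which methylates nicotinamide, read 4.39 and 4.49 with B. lactis 420 and 6.37 and 6.83 with Ls-33 (2.16 ± 0.22, SE, 4.47-fold, adjusted p = 6.29e-06). KYNU, kynureninase, read 4.84 and 5.69 with B. lactis 420 and 7.07 and 7.23 with Ls-33 (1.88 ± 0.30, SE, adjusted p = 9.91e-04), and its other probe sets, at 0.60 and 0.22, were not called. NAMPT, which recycles nicotinamide to NAD, was higher by 0.65 ± 0.08 (SE, adjusted p = 1.34e-04). The median of the list was -0.13, and 8 of its 14 tested genes had a negative difference. SOD2, the mitochondrial superoxide dismutase that NF-kB induces, read 8.50 and 8.49 with B. lactis 420 and 9.82 and 9.43 with Ls-33 (1.13 ± 0.13, SE, adjusted p = 4.12e-05). It belongs to a list of NRF2 and antioxidant genes in which 3 of 27 were higher and 1 lower.

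**Figure D3:**
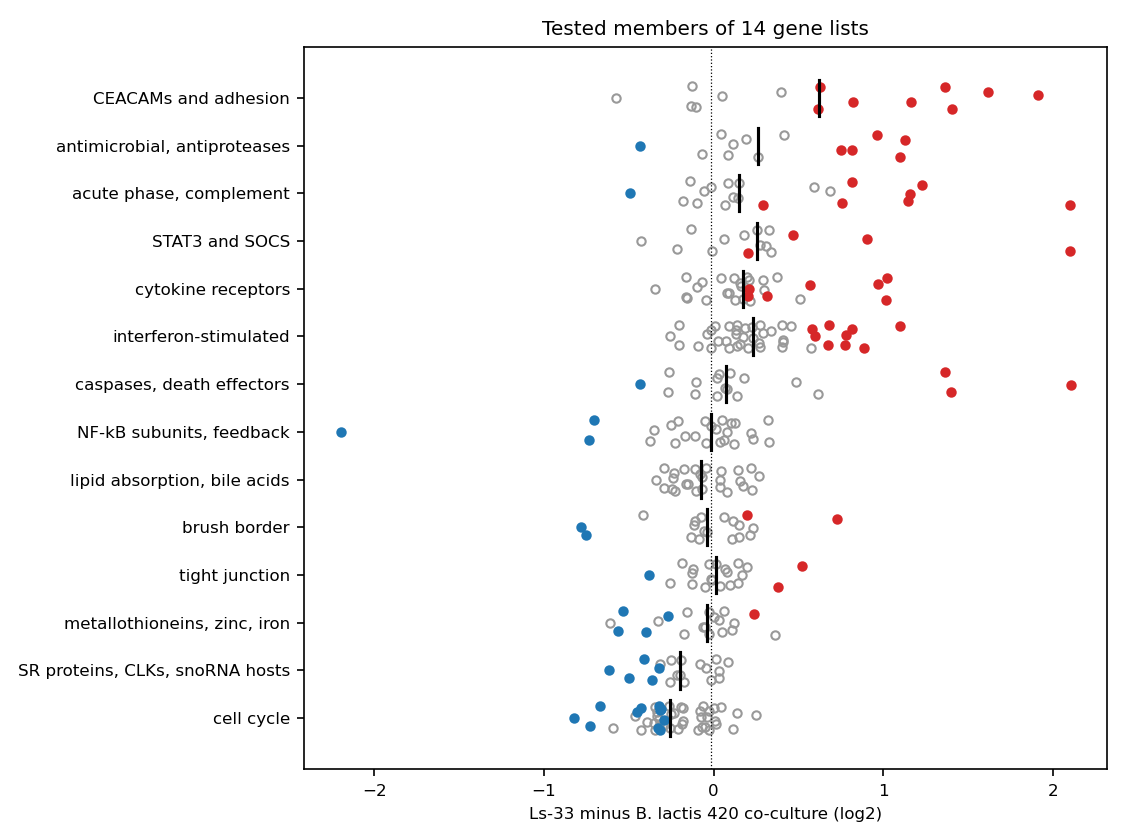
Differences (Ls-33 minus B. lactis 420, log2, horizontal axis) of the tested members of 14 gene lists (vertical axis). Red and blue points were called higher and lower with Ls-33, open points were not called, black bars are list medians and the dotted line is the median of all tested genes, -0.02. Adhesion genes lie to the right with a median of 0.62, and cell cycle genes to the left with a median of -0.26.

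Further genes with large differences belonged to matrix, mucosal repair and absorptive functions. MMP1, an interstitial collagenase, read 6.89 and 6.88 with B. lactis 420 and 8.05 and 7.84 with Ls-33 (1.06 ± 0.20, SE, adjusted p = 0.00342). ITGA2, a collagen-binding integrin chain, was higher by 0.90 ± 0.08 (SE), and 5 of 23 tested protease and matrix genes were called, with 0 lower (1 without Ls-33 replicate 1, 3 without Ls-33 replicate 2 and 2 without B. lactis 420 replicate 1). TFF1, a trefoil peptide that protects mucosa, read 9.49 and 9.53 with B. lactis 420 and 10.58 and 10.44 with Ls-33 (1.00 ± 0.08, SE, 1.996-fold, adjusted p = 1.79e-07). EGLN3, an oxygen-sensing prolyl hydroxylase, read 6.07 and 5.94 with B. lactis 420 and 7.18 and 7.18 with Ls-33 (1.17 ± 0.16, SE, adjusted p = 2.24e-04). It led a hypoxia and glycolysis list with 5 of 33 higher and 0 lower (2 without Ls-33 replicate 1 and 3 without B. lactis 420 replicate 1). VNN1, the pantetheinase vanin-1, was higher by 1.05 ± 0.17 (SE). CLTRN, which carries amino acid transporters to the brush border, was higher by 1.28 ± 0.23 (SE) and CLIC5, a chloride channel protein of microvilli, by 1.45 ± 0.21 (SE). SMARCA2, a chromatin remodelling ATPase, differed by 1.75 ± 0.29 (SE) on the probe set that stands for it, but its probe set 206542_s_at was called the other way, at -1.06 (adjusted p = 0.00559). The direction of SMARCA2 as a gene is thus not settled by these arrays. DSG2-AS1 was higher by 1.41 ± 0.25 (SE), and it is antisense to the desmosomal cadherin DSG2, which was itself higher by 0.23 ± 0.05 (SE).

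Cell cycle genes were lower with Ls-33 in 11 of 48 tested (22.9%, beside 2.70% of all tested genes) and higher in 0. Their median difference was -0.26, beside -0.02 over all tested genes. Negative differences were seen in 41 of the 48. MCM2, a subunit of the replicative helicase, read 7.32 and 7.13 with B. lactis 420 and 6.22 and 6.58 with Ls-33 (-0.82 ± 0.15, SE, adjusted p = 0.00281). MCM5 of the same complex differed by -0.73 ± 0.18 (SE) and the phosphatase CDC25A, which starts S phase, by -0.67 ± 0.18 (SE). UBE2C, a ubiquitin carrier of mitotic exit, read 9.06 and 9.06 with B. lactis 420 and 8.64 and 8.62 with Ls-33 (-0.43 ± 0.08, SE, adjusted p = 0.00225). RRM2, which makes deoxynucleotides, differed by -0.32 ± 0.06 (SE) and CDK1, the mitotic kinase, by -0.29 ± 0.07 (SE). GINS2, a helicase subunit outside the list, was among the 15 largest falls at -0.91 ± 0.17 (SE, adjusted p = 0.00387). The count of 11 fell to 2 without Ls-33 replicate 1, to 4 without Ls-33 replicate 2, to 2 without B. lactis 420 replicate 1 and to 3 without B. lactis 420 replicate 2. UBE2C was kept in each of those fits.

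Splicing factors of the SR family were lower as well. The list tested held 19 SR proteins, CLK kinases, hosts of small nucleolar RNAs and nuclear RNAs, with a median of -0.20. Of these 5 were lower and 0 higher, namely 4 SR proteins and the nuclear RNA MALAT1. SRSF7 read 9.34 and 9.19 with B. lactis 420 and 8.52 and 8.77 with Ls-33 (-0.62 ± 0.11, SE, adjusted p = 0.00180). SRSF5 differed by -0.41 ± 0.06 (SE), SRSF6 by -0.36 ± 0.07 (SE) and SRSF3 by -0.32 ± 0.05 (SE). MALAT1, a nuclear RNA that gathers with these factors, differed by -0.50 ± 0.07 (SE) on its representative probe set, while its probe set 228582_x_at was called at 0.48 (adjusted p = 0.00559), so that MALAT1 has no settled direction here. Other long non-coding RNAs stood among the largest falls. GABPB1-AS1 read 5.91 and 5.94 with B. lactis 420 and 4.56 and 5.04 with Ls-33 (-1.12 ± 0.18, SE, adjusted p = 0.00110), AFDN-DT differed by -1.08 ± 0.19 (SE) and LINC02806 by -1.05 ± 0.19 (SE). Their medium arrays lay near or below the Ls-33 arrays, at 3.89 and 3.84 for GABPB1-AS1.

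The remaining genes of the 15 largest falls belonged to no list. LOC441179, an uncharacterised locus, read 5.22 and 6.04 with B. lactis 420 and 4.69 and 4.05 with Ls-33 (-1.26 ± 0.26, SE, adjusted p = 0.00733), a call kept in 2 of the 4 fits with an array left out. ATG16L2, a paralogue of an autophagy factor, read 5.61 and 5.66 with B. lactis 420 and 4.66 and 4.49 with Ls-33 (-1.06 ± 0.23, SE, adjusted p = 0.0105), a call kept in none of those fits. MST1, which encodes macrophage-stimulating protein, read 6.84 and 6.77 with B. lactis 420 and 5.96 and 5.75 with Ls-33 (-0.95 ± 0.15, SE, adjusted p = 8.25e-04). That the arrays of the strains did not overlap in these genes was a condition of their choice and is no support. ANKRD13D, RAD9A, a subunit of a DNA damage checkpoint clamp, NISCH, which binds integrin, FLYWCH1 and FAM185A differed by -0.97, -0.89, -0.89, -0.88 and -0.88. Another tested probe set of ANKRD13D differed by -0.04 and another of FLYWCH1 by -0.01, neither of them called. The histone methyltransferase NSD1 differed by -0.88, a call kept in none of those fits, and LINC00479 by -0.91, kept in all 4.

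Metallothioneins, which bind zinc and copper, were lower with Ls-33. MT1X read 8.80 and 8.58 with B. lactis 420 and 8.06 and 8.25 with Ls-33 (-0.53 ± 0.10, SE, adjusted p = 0.00474). MT1F differed by -0.40 ± 0.10 (SE) and MT2A by -0.27 ± 0.08 (SE), and the zinc exporter SLC30A2 by -0.56 ± 0.16 (SE). Of 20 tested metal genes 4 were lower and 1 higher, and without any 1 of the 4 arrays 0 or 1 was lower. The metallothionein sequences are closely related, and sharing of signal among them was not tested.

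Most tested barrier and absorptive genes were not called, though some lists had a larger share of calls than the 5.58% of all genes. Among tight junction genes TJP1 differed by 0.02 ± 0.05 (SE), OCLN by 0.07 ± 0.05 (SE) and CLDN1 by 0.14 ± 0.07 (SE), with adjusted p of 0.904, 0.435 and 0.245. Of 21 tested, CLDN12 (0.38) and PATJ (0.52) were higher and CGN (-0.38) was lower, and neither higher call was kept without any 1 of the 4 arrays. Of 19 tested brush border genes 2 were higher, the hydrolases MGAM (0.73 ± 0.21, SE) and DPP4 (0.20 ± 0.05, SE), and 2 were lower, PDZK1 and the scaffold USH1C (-0.75 ± 0.20, SE), and without any 1 of the 4 arrays 0 or 1 was higher and 1 or 2 were lower. PDZK1, a scaffold for apical transporters, read 6.14 and 6.27 with B. lactis 420 and 5.49 and 5.35 with Ls-33 (-0.78 ± 0.11, SE, adjusted p = 4.22e-04), far below its medium level of 8.75 and 8.55. The fructose transporter SLC2A5 read 4.38 and 4.60 with B. lactis 420 and 4.63 and 3.78 with Ls-33, against a mean of 9.07 in medium, and its difference between strains of -0.28 ± 0.19 (SE) was not called (adjusted p = 0.436). None of 26 tested lipid absorption and bile acid genes was called by limma (7 at an unadjusted p under 0.05), nor was any of 27 proteasome genes (11 at that p). PTGS2, the inducible cyclooxygenase, differed by 0.25 ± 0.10 (SE, adjusted p = 0.136). Its other tested probe set had a lower mean signal (4.10 beside 8.00). That probe set was called higher with Ls-33, at 0.68 (adjusted p = 0.0495, limma on every probe set). FGFR3, a growth factor receptor, was lower at -0.60 ± 0.08 (SE, adjusted p = 8.87e-05), and the endoplasmic reticulum stress gene HERPUD1 at -0.41 ± 0.06 (SE).

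Transport and respiratory chain lists were mixed or small in size, while the desmosome and mucin lists had higher calls only (23.5% and 27.3%, beside 2.88% of all tested genes). SLC15A1, the apical peptide transporter, read 7.93 and 7.88 with B. lactis 420 and 8.51 and 8.48 with Ls-33 (0.60 ± 0.09, SE, adjusted p = 4.06e-04), and AQP3, a glycerol and water channel, was higher by 0.29 ± 0.05 (SE). The amino acid transporter chain SLC7A7 was lower, at -0.24 ± 0.05 (SE), and of 21 tested sugar and peptide transport genes 3 were higher and 3 lower, with 12 at an unadjusted p under 0.05. KRT20, a keratin of mature colonocytes, read 12.26 and 12.28 with B. lactis 420 and 12.69 and 12.80 with Ls-33 (0.47 ± 0.05, SE, adjusted p = 3.29e-05), and it led 4 higher and 0 lower among 17 tested desmosome and keratin genes. In the mucin list MUC13 (0.37 ± 0.09, SE) and MUC1 (0.58 ± 0.16, SE), which encode membrane mucins, rose beside TFF1, with 3 of 11 tested higher and 0 lower. Respiratory chain genes had 27 negative differences in 31 tested, but only 3 were called lower (9.68%, beside 2.70% of all tested genes) and 1 higher. The median was -0.11, beside -0.02 over all tested genes. NDUFV1 of complex I differed by -0.31 ± 0.07 (SE), while NDUFV2 of the same complex differed by 0.25 ± 0.05 (SE). With an array left out these lists lost calls, the desmosome list to 1 without Ls-33 replicate 1 and to 2 without B. lactis 420 replicate 2, the mucin list to 1 without any array but B. lactis 420 replicate 1, and the lower respiratory calls to 0 without either replicate 1.

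Antioxidant and xenobiotic enzymes showed a few calls of moderate size. GPX2, the gut glutathione peroxidase, read 11.90 and 11.93 with B. lactis 420 and 12.31 and 12.29 with Ls-33 (0.39 ± 0.05, SE, adjusted p = 3.94e-05). GCLM, which controls glutathione synthesis, was higher by 0.54 ± 0.11 (SE), and GPX1 was lower, at -0.33 ± 0.09 (SE). CYP1A1, the main target of the aryl hydrocarbon receptor, read 11.55 and 11.49 with B. lactis 420 and 11.15 and 11.19 with Ls-33 (-0.35 ± 0.05, SE, adjusted p = 7.03e-04). TIPARP, another target of that receptor, differed the other way, by 0.51 ± 0.12 (SE, adjusted p = 0.0152), a call kept in 1 of the 4 fits with an array left out. The sulfotransferase SULT2A1 was lower, at -0.48 ± 0.08 (SE), and its call was kept in all 4. Of 22 tested lineage factors and nuclear receptors 2 were lower, RXRA at -0.51 ± 0.11 (SE) and its partner NR1H3, the oxysterol receptor LXR-alpha, at -0.48 ± 0.13 (SE), each kept in 1 of the 4 fits.

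Genes under the floor of 2.74 were not tested in the comparison. When every gene with a symbol was tested, 453 of 19775 genes were called by limma. Of those under the floor 12 were called, 8 higher and 4 lower with Ls-33. The lower ones were ATP5MF, EQTN, LOC105374042 and ZNF767P, at -0.57 to -0.85. C5AR1, DSG3, HELB, LINC02825 and PDC were higher, by 0.53 to 0.72. Among the higher ones CXCL5, a neutrophil chemokine, read 2.45 and 2.50 with B. lactis 420 and 4.60 and 3.94 with Ls-33 (1.79 ± 0.19, SE, adjusted p = 8.89e-06 in that fit). SERPINA3, the acute phase protein alpha-1-antichymotrypsin, read 2.29 and 2.75 with B. lactis 420 and 3.97 and 4.48 with Ls-33 (1.70 ± 0.20, SE, adjusted p = 3.12e-05 in that fit). CASP1 was called in the same fit, at 1.01 ± 0.15 (SE, adjusted p = 6.27e-04).

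The same strains were also compared as cell-free supernatants at 24 h, on arrays that the live comparison does not use. There 2 genes were higher with Ls-33 and 0 were lower by limma (0.0169% of tested genes), and 989 genes (8.34%) had an unadjusted p under 0.05. CCL20, which was not called between the live strains, was higher with Ls-33 supernatant by 0.47 ± 0.07 (SE, adjusted p = 0.0256). The other gene was SUMF2, a paralogue of a sulfatase activator, at 1.04 ± 0.15 (SE, adjusted p = 0.0214). By limma none of the 662 genes called between live strains was called between supernatants, where 58 of the 342 higher and 27 of the 320 lower genes had an unadjusted p under 0.05. Over the 342 genes higher with live Ls-33 the median supernatant difference was 0.07, with 247 positive, and over the 320 lower genes it was -0.01, with 172 negative. Among all 11865 tested genes 7078 were positive. CXCL10 differed by 0.09 ± 0.16 (SE) between supernatants, LRG1 by 0.21 ± 0.19 (SE) and MIR146A by 0.33 ± 0.17 (SE), and none of the 3 was called.

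Whether the strain difference itself depended on format was tested as the interaction, the live difference minus the supernatant difference. It was called in 95 genes (0.801% of tested), 48 positive and 47 negative, and 82 of them were among the 662. Of the 45 genes with at least 2-fold live differences 17 had a called interaction. The live difference is part of the interaction, so genes called for it were more likely to be called here. These overlaps are therefore no separate support. CXCL10 had an interaction of 2.42 ± 0.22 (SE, adjusted p = 7.27e-06), CFB one of 1.18 ± 0.11 (SE, adjusted p = 7.27e-06) and MIR146A one of -2.52 ± 0.24 (SE, adjusted p = 7.27e-06). OLR1, CEACAM7, C3 and TNFRSF9 had supernatant differences of 0.56, 0.51, 0.69 and 0.69 in the live direction, not called, and their interactions were not called either (adjusted p = 0.102, 0.206, 0.899 and 0.554). Without 1 of the 8 arrays of these 4 groups the positive interactions numbered 19 to 50 and the negative ones 13 to 38. Leaving out B. lactis 420 co-culture replicate 2 kept both counts within 1.5 times, and leaving out B. lactis 420 supernatant replicate 1 kept the positive count so, at 41, with 31 negative. Leaving out any of the other 6 arrays gave 19 to 26 positive and 13 to 20 negative. Time and format differ together between these comparisons and cannot be told apart.

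**Figure D4:**
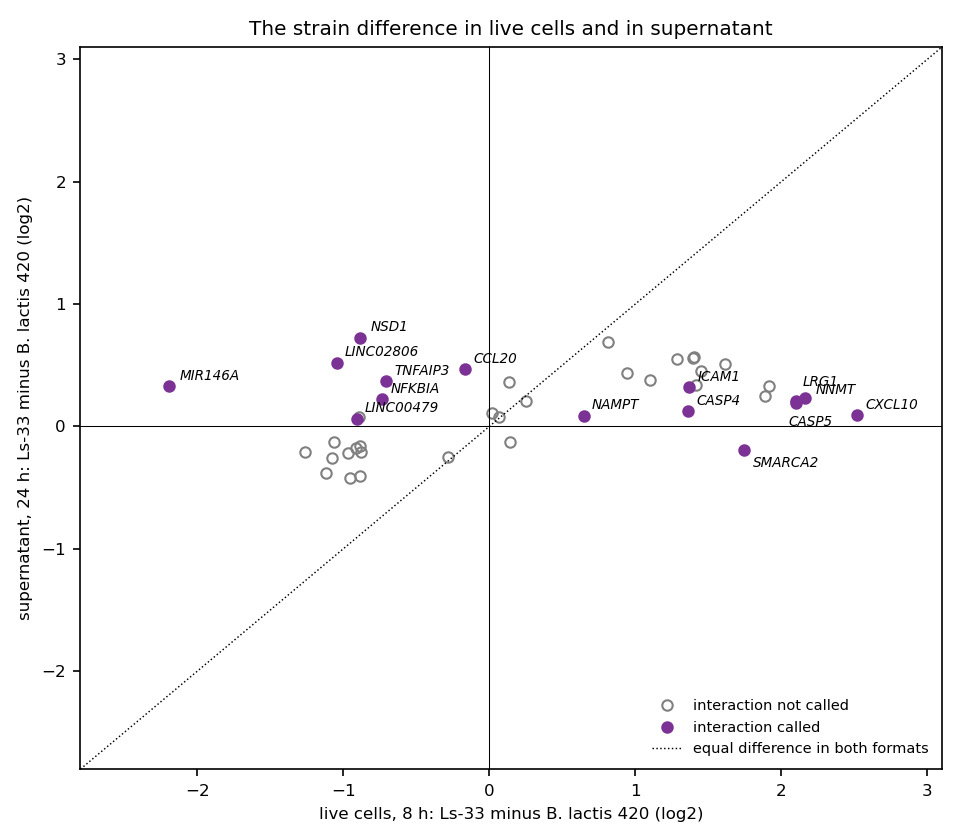
Difference Ls-33 minus B. lactis 420 (log2) with live cells at 8 h (horizontal axis) and with supernatant at 24 h (vertical axis) for the largest differences and the genes named whatever their values. Filled points had a called interaction, open points did not, and the dotted line marks equal differences. CXCL10 lies at 2.52 and 0.09, MIR146A at -2.20 and 0.33.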

How the data were processed

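RNA of 14 arrays (Affymetrix HG-U133 Plus 2.0) entered 1 fit, 4 of which form the comparison. The authors deposited log2 probe-set values made with RMA, per the submitters' processing notes (its version is not given in the sources used here). The number of arrays limits precision. Of 54675 probe sets 41091 carried 1 gene symbol, 1801 several and 11721 none. For each of 19775 genes the probe set brightest on average over the 20 arrays was taken, without _x_at sets where others existed. Genes at or above the 40th percentile of mean signal (2.74) were tested with limma 3.58.1 in R 4.3.3 (group means, eBayes with trend, 7 residual degrees of freedom, Benjamini-Hochberg adjusted p under 0.05). The code was tested on simulated data. Alternatives were other filters, no trend, joint quantile normalization, fewer arrays in the fit, single probe sets, a block for replicate number, and omission of each array.

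Genes to name were taken by rule. First came the 15 largest rises and falls among called genes whose arrays did not overlap between the strains. To these were added up to 4 called members of each of 46 lists with the lowest adjusted p, and a fixed set. The text describes most of them, and some small differences are given as list counts only. The other list members named, the genes described under the floor, and SUMF2, were chosen after their values were seen. The comparison and all lists were chosen with earlier results of these data known. Promoter and microRNA sequences are RefSeq's for GRCh38.p14.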

Additional observations from a re-analysis of the deposited data

Results flagged for a closer look

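For 40 of the named genes the strain difference itself differed between live cells at 8 h and supernatant at 24 h, by the interaction term of the limma fit (live difference minus supernatant difference, log2, adjusted p from 7.27e-06 to 0.0497). Most of the named genes were chosen by their live difference, which is part of the interaction. Their choice thus raises that count, which is no separate support. Positive interactions among chemokine, acute phase, complement and adhesion genes were those of CXCL10 (2.4236), LRG1 (1.8935), FGB (1.3908), CFB (1.1831), CEACAM5 (1.0942), ICAM1 (1.0488), FGG (0.9455), ITGA2 (0.8348), CEACAM1 (0.8021), CEACAM6 (0.6563) and IL32 (0.4461). Among caspases, sensors, antigen-presenting and defence genes they were those of CASP5 (1.9144), CASP4 (1.2378), IFIH1 (1.1921), LYZ (1.0905), ERAP1 (0.7098) and PLSCR1 (0.6317). Among metabolic, transport and epithelial genes they were those of NNMT (1.9265), EGLN3 (1.2484), SOD2 (0.9891), TFF1 (0.9649), SLC15A1 (0.5720), NAMPT (0.5594), SERPINH1 (0.5148), GPX2 (0.4758), KRT20 (0.4419) and AQP3 (0.3141). SMARCA2 had 1.9402, on a gene whose probe sets disagree in direction.

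Negative interactions were those of MIR146A (-2.5221), TNFAIP3 (-1.0744), NFKBIA (-0.9607), CCL20 (-0.6347) and IER3 (-0.5960) among NF-kB feedback and target genes. The others were NSD1 (-1.6082), LINC02806 (-1.5681), LINC00479 (-0.9729), FGFR3 (-0.5846), GSDME (-0.4970), HERPUD1 (-0.3756) and CYP1A1 (-0.3258).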

How the results depend on the processing

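Precision was limited by 2 arrays a group. The called counts, 342 higher and 320 lower, depended on how spread was shared: 129 and 116 without a trend, 201 and 182 from the 8 h arrays alone. Without a filter 205 genes were lower. At the 60th percentile 18 genes were called with at least 2-fold differences. With 1 of the 4 arrays left out, counts ranged from 105 to 261 higher and 73 to 150 lower, and 42 to 64 at 2-fold. Of 137 called named genes 56 kept their call in all 4 such fits. Calls shared with a fit of the same probe sets kept their direction in each of the 11 such fits. Only joint quantile normalization could have turned a direction. The other fits use the same array values, and the arrays of the strains overlap in no called gene. The causes of the changed counts were not tested.

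Interferon genes numbered 5 at the 60th percentile and 2 to 6 with an array left out. Cytokine receptors numbered 3 without a trend and 2 to 3 with an array left out. Cell cycle genes numbered 6 without a filter, 5 without a trend, 5 from the 8 h arrays and 2 to 4 with an array left out. The splicing list had 8 at the 60th percentile, 8 from the 4 arrays alone and 3 without a trend, and NF-kB genes had 5 lower from the 4 arrays alone. Supernatant calls were 0 without a trend, 0 with every probe set on its own, and 0 to 6 higher and 0 to 1 lower with an array left out. The interaction had 9 positive and 4 negative calls without a trend and 78 positive with every probe set on its own, and 19 to 50 positive and 13 to 38 negative with an array left out, a range chosen after seeing the data.

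With the replicate number as a block, 325 genes were higher and 290 lower, and 602 of the 615 calls were shared. The deviations of same-numbered arrays correlated at -0.05 between the co-cultures compared and at -0.10 to 0.06 over the 21 group pairs. No pairing by number was thus seen. A pairing that moved few genes would not show in this measure.

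Other probe sets turned the sign in genes of the text as follows. SMARCA2 had -1.0580 (206542_s_at). MALAT1 had 0.4803, 0.2374, 0.0053, 0.1538, 0.4813 and 0.3650. B2M had -0.1198, CDK1 0.4151, FCER1G -0.3014, GPX2 -0.1159, IL1RAP -0.0158, NAMPT -0.1280, RXRA 0.1319, SLC2A5 0.1675, SOCS3 -0.1809 and SRSF5 0.0815. Genes named by the rule but not described were CTNNB1 (-0.0376), EGR1 (-0.0153), FN1 (-0.4285), HK2 (-0.0791 and -0.3171), JUND (0.0021 and 0.0243), MMP15 (-0.0348), SLC40A1 (-0.1255) and SREBF1 (0.0208). Other probe sets that kept the sign without a call included those of CLIC5 (0.49), PIGR (0.18), VNN1 (0.12), LYZ (0.11) and CFB (0.05). Of 102 genes with several called probe sets, 6 (5.88%) had calls in opposite directions.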
